A study of Mus musculus with 6 samples.

Results

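Ptchd1 and the genes most closely related to it by protein architecture were compared between Ptchd1 mutant and wild-type mouse hippocampus. The 8 genes were taken by name or synonym from the deposited expression table, which holds 25785 gene names: Ptchd1, the hedgehog receptor gene Ptch1, Disp1, Disp2, Ptchd2 (now Disp3), Ptchd3, Npc1 and Scap. The series holds RNA from whole hippocampus in 3 libraries labelled PTCHD1 mutant and 3 labelled wild type, all of strain C57B1/6J (as the labels spell it) at postnatal day 30. The sample titles mark the mutant libraries ko and give each library its own number, without saying what the number stands for. The labels do not give the allele, the part of the gene that was altered, the sex, the litter or whether the libraries are separate animals. A p-value therefore reflects only how far these libraries spread, which may be technical. The question put to the relatives was whether any was higher where Ptchd1 was mutated.

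Patched-domain proteins span the membrane many times and carry a sterol-sensing domain, a bundle of helices that in several of them handles or responds to cholesterol. PTCH1 binds secreted hedgehog ligands and, when unbound, holds the signal transducer Smoothened inactive. The Dispatched protein DISP1 releases cholesterol-modified hedgehog from the cells that make it. NPC1 moves cholesterol out of lysosomes, and SCAP escorts the SREBP transcription factors to the Golgi when membrane cholesterol is low. PTCHD1 is an X-linked gene of intellectual disability and autism, and its protein ends in a motif that binds PDZ domains of postsynaptic scaffolds. The end of the Ptchd1 coding sequence is shown because the scaffold genes examined further on are those this motif is known to bind; it is read from the GENCODE transcript on GRCm38, 5′ to 3′, with the last 4 codons before the stop in capitals.
Ptchd1: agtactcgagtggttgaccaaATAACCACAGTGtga

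The unit of level is the normalized read equivalent: the coverage of a transcript, normalized by the authors, over 42 bases, the read length inferred from the values. Values are listed in the order of replicates 1, 2 and 3 of each group. Before normalization the libraries summed to between 12450701 and 19012804 read equivalents in mutants and between 17827539 and 23749087 in wild type. Markers of the hippocampal dissection were present, with all 4 pyramidal neuron and all 4 dentate granule neuron markers detected. Every library carried Y-linked transcript: Ddx3y lay between 1794 and 2224 in mutants and between 2339 and 2685 in wild type, against an Xist level between 15.4 and 38.8 over all 6. Choroid plexus markers, summed over 5 genes, reached 52529 and 19481 in wild-type replicates 1 and 3 but 715 in wild-type replicate 2, and lay between 1075 and 2647 in mutants.

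All mutant libraries held less Ptchd1 transcript than all wild-type libraries. Its level was 181, 150.03 and 130.0 normalized read equivalents in the mutants, against 323, 389 and 411 in the wild type. The groups were separated by a wide gap, and the mutant mean was 154 ± 25.7 against 374 ± 45.5 in wild type (SD, n = 3 each). The log2 change was -1.28 ± 0.14 (SE; limma adjusted p = 0.0342), so the mutant level was 41.0% (95% interval 33.1% to 50.9%) of that in wild type. Ptchd1 had the smallest p of the 15717 genes tested and was the 1 gene past the adjusted threshold of 0.05, a share of 0.00636%, with 0.0% of genes called higher. On fold size alone it was not extreme, since 82 genes had a lower log2 change. The limma call ended without mutant replicate 2 (adjusted p = 0.223), wild-type replicate 1 (0.0655) or wild-type replicate 3 (0.37). The log2 change over the 6 omissions lay between -1.41 and -1.17. The authors' deposited unadjusted DESeq p for Ptchd1, from all 6 libraries, was 3.66e-19, or 5.75e-15 when adjusted over the genes tested.

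The transcript left in the mutants was well above the counting limit. Unnormalized, the libraries held 196, 143 and 91.8 read equivalents of Ptchd1 in the mutants, against 329.5, 513 and 423 in the wild type. The GENCODE model has 3 exons of 366, 661 and 1741 bases, so the last exon makes up 62.9% of the transcript. The deposited table has 1 row for Ptchd1, summed over the transcript, and does not show which exons the remaining signal came from. Among the authors' deposited ontology terms for lower genes, Ptchd1 is 1 of 6 genes of the smoothened signaling pathway, with an enrichment of 2.42-fold and a corrected p of 1. That term is 1 of 36 that list Ptchd1. For higher genes the same term lists 3 genes, Disp2 among them, at 1.01-fold.

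**Figure D1:**
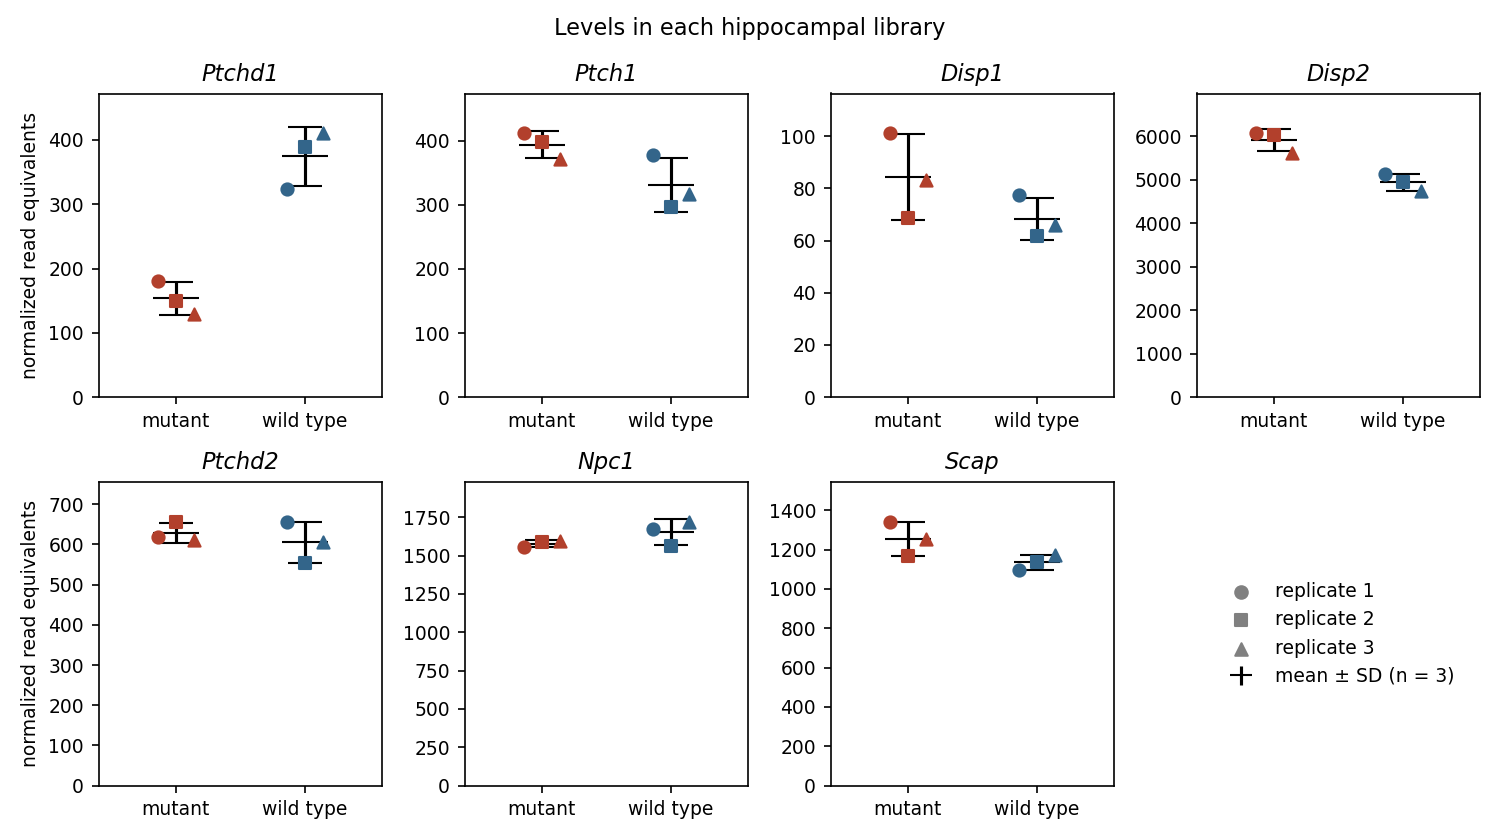
Normalized read equivalents (vertical axes, each starting at 0) of the 7 detected genes in mutant and wild-type libraries; symbols are single libraries and black bars the mean ± SD of 3. The groups do not overlap for Ptchd1, lower in mutants, and Disp2, higher in mutants.

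None of the relatives passed the adjusted threshold. Of the 7 relatives 6 passed the filter of a mean of at least 10 and were tested, and 0 were called, with 2 (Disp2 and Ptch1, both higher in mutants) at an unadjusted p under 0.05. Of all genes tested 18.7% had an unadjusted p under 0.05, 9.01% higher and 9.7% lower in mutants. The log2 change was positive for 5 of the 6 and negative for Npc1, where 46.8% of all genes were positive, with a median of 0.20 beside -0.02 over all genes tested. After a correction of each library for transcript GC content and length the median of the 6 was 0.07, and none of them was among the 0.0191% of genes called.

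Disp2, the neuronal Dispatched relative and the most abundant member, was the relative with the smallest p. Its level was 6076, 6032 and 5626 in the mutants, against 5134, 4961 and 4738 in the wild type. Every mutant library was above every wild-type library, as for 12.3% of all genes tested. The means were 5911 ± 248 in mutants and 4944 ± 198 in wild type (SD, n = 3 each), a log2 change of 0.26 ± 0.06 (SE; limma adjusted p = 0.12). The 95% interval of the change ran from 1.09-fold to 1.31-fold.

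The call on Disp2 depends on the test. In the authors' deposited table its unadjusted p was 1.29e-05 with a positive score of 4.21, and adjusting the authors' p-values over the genes tested gave 0.00115, a threshold that 4.57% of genes passed in the higher and 3.23% in the lower direction. No other relative passed it. With library quality weights in limma its adjusted p was 0.0283. After the GC and length correction its log2 change was 0.12, with an adjusted p of 0.351.

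Pyramidal neuron markers summed to a higher level in mutants, as Disp2 did, although 0 of the 4 passed the adjusted threshold. Their summed level lay between 47038 and 49641 in mutants and between 40903 and 43433 in wild type, and 3 of the 4 (Camk2a, Slc17a7 and Nrgn) were higher in mutants with no overlap, beside 12.3% of all genes. Their adjusted p-values were 0.131, 0.266 and 0.248 (limma). The GC and length correction lowered their log2 changes, from 0.29 to 0.20, 0.16 to 0.08 and 0.15 to 0.12. Neurod6 had a log2 change of -0.05, or 0.12 after the correction, with groups that overlapped. The median of the 4 was 0.15, or 0.12 after the correction. Interneuron markers, summed over 5 genes, lay between 11591 and 12263 in mutants and between 10674 and 11405 in wild type. In bulk tissue a larger share of a cell type and more RNA per cell cannot be told apart, and the part of cell makeup in the Disp2 difference was not tested. The authors' deposited table of cell types lists Disp2 among the 59 of 940 higher genes that mark CA1 and CA2 pyramidal neurons, an enrichment of 3.22-fold. Those higher genes came from these same libraries, so the listing is not separate support. The authors' deposited table of binding datasets lists Disp2 in 16 datasets for higher genes, and Ptchd1 in 9 for lower genes. The largest of the 16 lists holds 1003 of the 1151 higher genes entered, so being listed is not particular to Disp2. Enrichments for the 16 lay between 1.27-fold and 4.38-fold. The highest was for REST, the repressor of neuronal genes outside neurons, in neural progenitors, where Disp2 is 1 of 65 listed genes. No other relative appears in the authors' tables of enriched cell types, ontology terms or binding datasets that were examined.

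Ptch1, the hedgehog receptor and itself a transcriptional target of the pathway, had a similar fold but wider spread. It stood at 412, 398 and 371 in the mutants, against 378, 297 and 317 in the wild type. The groups overlapped, because wild-type replicate 1 was above mutant replicate 3. The log2 change was 0.26 ± 0.11 (SE; unadjusted p = 0.0359, limma adjusted p = 0.234), with a 95% interval of 1.01-fold to 1.41-fold. Wild-type replicate 1 also had the most choroid plexus transcript, and without that library the log2 change was 0.36 (adjusted p = 0.124). It was 0.23 (0.481) without wild-type replicate 3, the other library rich in choroid plexus transcript, 0.18 (0.559) without wild-type replicate 2, and 0.17 (0.393) after the GC and length correction.

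Disp1, which releases hedgehog from producing cells, was the scarcest detected member. It stood at 101, 68.6 and 83.3 in the mutants, against 77.3, 61.9 and 65.9 in the wild type. The mutant values straddled the highest wild-type value, and the log2 change of 0.29 ± 0.18 (SE; limma adjusted p = 0.414) had an interval of 0.92-fold to 1.61-fold. It was 0.15 without mutant replicate 1, 0.43 without mutant replicate 2 and 0.17 after the GC and length correction. The 4 Disp1 transcript rows overlap in sequence and gave log2 changes between 0.29 and 0.31. A row of Prss30, which shares Disp1 as a synonym, was matched by the rule and set aside for its lower mean.

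Ptchd2, a brain-enriched Dispatched relative, was nearly level between groups. It stood at 619, 657 and 609.9 in the mutants, against 656, 554.7 and 607 in the wild type. The ranges overlapped throughout, and the log2 change was 0.06 ± 0.09 (SE; limma adjusted p = 0.758), with an interval of 0.91-fold to 1.18-fold. Its sign turned after the GC and length correction (-0.11). Ptchd3, known mainly from male germ cells, was listed at 0 in all 6 libraries and was not tested.

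**Figure D2:**
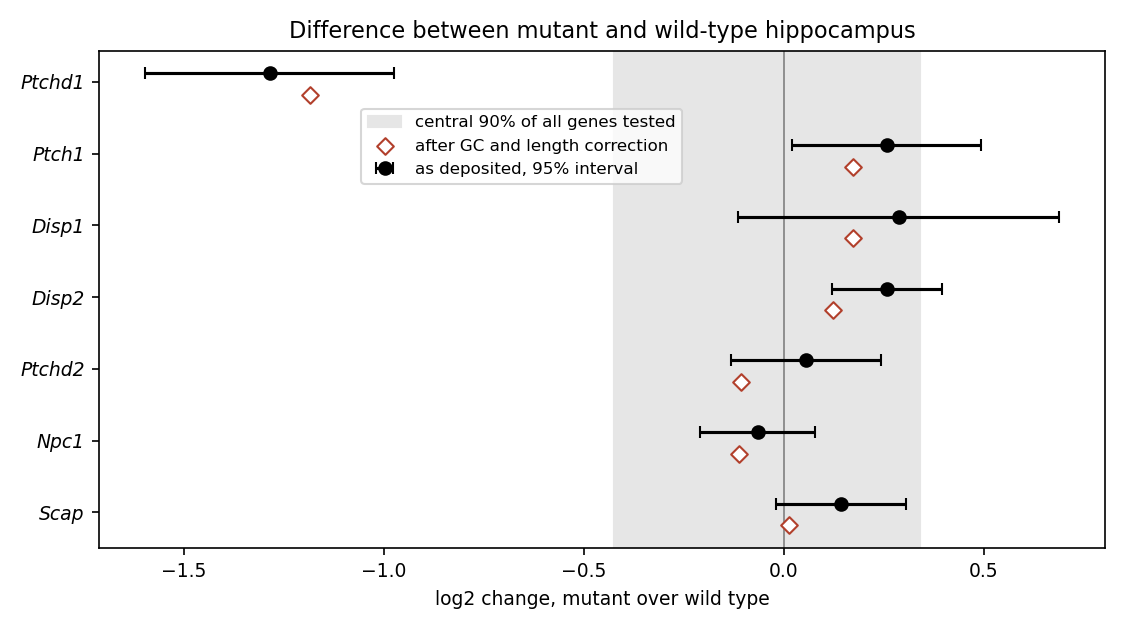
Log2 change of mutant over wild type (horizontal axis) for the 7 detected genes; circles are the values as deposited with 95% limma intervals, diamonds the values after correction for GC content and length, and the grey band the central 90% of all genes tested. Ptchd1 lies far outside the band at -1.28, and each of the 6 relatives has its value inside it.

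The 2 members best known for sterol handling, Npc1 and Scap, did not pass the threshold. Npc1, the lysosomal cholesterol exporter, stood at 1554, 1587 and 1594 in the mutants, against 1675, 1559.6 and 1722 in the wild type. Wild-type replicate 2 fell among the mutants, and the log2 change was -0.06 ± 0.07 (SE; limma adjusted p = 0.623), with an interval of 0.87-fold to 1.06-fold. Of the 6 relatives Npc1 was thus the one whose interval allowed the least increase.

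Scap, the SREBP escort, stood at 1342, 1169 and 1255 in the mutants, against 1095, 1138 and 1172 in the wild type. Mutant replicate 2 lay just under the highest wild-type library, so the groups overlapped. The log2 change was 0.14 ± 0.07 (SE; limma adjusted p = 0.316), with an interval of 0.99-fold to 1.24-fold, and it was 0.01 after the GC and length correction and 0.09 without mutant replicate 1. Its 2 transcript rows gave the same log2 change of 0.14.

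Levels followed transcript base composition most in mutant replicate 1 and wild-type replicate 2, in opposite directions. Mutant replicate 1 had a Spearman correlation of 0.431 between its deviations and transcript GC content across genes, and wild-type replicate 2 had -0.478, while the other 4 libraries lay between -0.18 and 0.08; genes are not independent replicates. With genes ranked into 5 equal classes by GC content, Scap and Ptchd2 fall in class 5, the highest, whose median log2 change was 0.08. Disp1 and Disp2 fall in class 4 (0.04), and Ptch1 and Npc1 in class 3 (-0.002). The correction fits GC content and length together, and the part of each was not tested. Ptchd1 falls in class 2 (-0.05), and its corrected log2 change was -1.18 with an adjusted p of 0.0335.

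Per kilobase of transcript, Disp2 was the most abundant member in both groups, at 892 ± 37.5 in mutants and 746 ± 29.9 in wild type (SD, n = 3 each, GENCODE transcript lengths). Npc1 (302 ± 4.10 in mutants, 316 ± 15.99 in wild type) and Scap (297 ± 20.5 in mutants, 268 ± 9.18 in wild type) came next, and their ranges overlapped in mutants but not in wild type. Ptchd1 changed place in this order. It was at place 5 in mutants at 55.5 ± 9.28, where its libraries overlapped with those of Ptch1 (51.0 ± 2.66), and at place 4 in wild type at 135.2 ± 16.4, where wild-type replicate 1 alone fell in the range of Ptchd2 (115 ± 9.61). Disp1 was the lowest of the detected genes in both groups, at 16.9 ± 3.28 in mutants and 13.7 ± 1.602 in wild type. These lengths come from another annotation than the one the authors used, so the order is approximate where neighbours lie close.

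The relatives' levels per kilobase summed to 1723, 1680 and 1631 in the mutants, against 1543, 1472 and 1491 in the wild type. The mean difference of 176 per kilobase consisted mostly of Disp2 (146), and without Disp2 it was 29.97, with sums that overlapped between groups. For comparison, the Ptchd1 mean was lower in mutants by 79.7 per kilobase. These are sums over genes chosen by name, and no test was made on them.

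**Figure D3:**
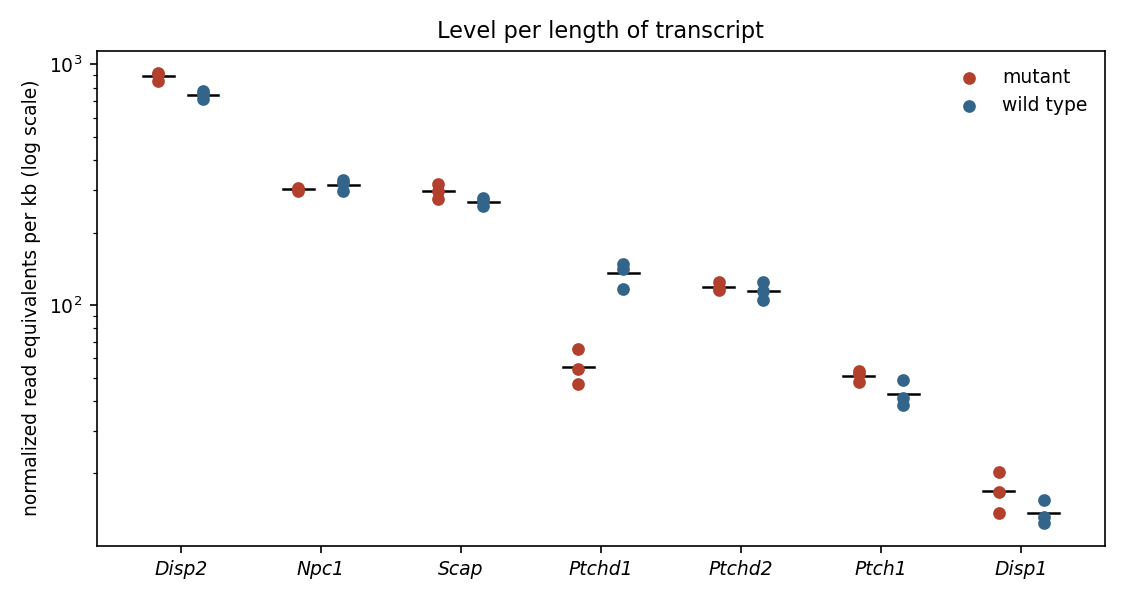
Normalized read equivalents per kilobase of transcript (log axis) of the 7 detected genes, ordered by the wild-type mean; points are single libraries and bars group means. Ptchd1 is at 55.5 in mutants and 135.2 in wild type, and Disp2 is the highest gene in both groups.

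Ptchd4 and Dhcr7, other genes with a sterol-sensing domain or a sterol function, were also not called. Ptchd4, a paralogue of Ptchd1, was at 496, 512 and 536 in the mutants, against 478, 450.1 and 436 in the wild type. Those groups did not overlap, and the log2 change was 0.18 ± 0.08 (SE; limma adjusted p = 0.271). Dhcr7, the last enzyme of cholesterol synthesis, had a log2 change of 0.18 (adjusted p = 0.368), with groups that overlapped.

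Hedgehog signalling genes went both ways. Of 22 listed genes 19 were tested, 0 passed in either direction, 10 were positive and 9 negative, and the median log2 change was 0.01, or -0.04 after the GC and length correction. At an unadjusted p under 0.05 there were 2 higher and 1 lower, beside 9.01% and 9.7% of all genes. Groups did not overlap for 2 higher and 3 lower genes, 26.3% of those tested, beside 24.3% of all genes. Sufu, which restrains GLI factors, was at 189, 193 and 179.6 in the mutants, against 148, 130.1 and 130.9 in the wild type (limma adjusted p = 0.12). The mutant libraries were all higher, with a log2 change of 0.46. Scube1, a secreted hedgehog-binding protein, had a log2 change of 0.48 (adjusted p = 0.16) and no overlap. Smo, the transducer that PTCH1 inhibits, had -0.25 (adjusted p = 0.23), again with no overlap. Gli1, a standard target gene of the pathway, was named after its values were seen. It stood at 24.02, 18.1 and 19.6 in the mutants, against 10.6, 19.0 and 15.8 in the wild type, which overlap. Sonic hedgehog transcript (Shh) was low in both groups, between 12.4 and 23.1 in mutants and between 13.7 and 23.4 in wild type.

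Partners and targets of SCAP were likewise not called. All 18 listed genes were tested, 0 passed, 8 were positive and 10 negative, and the median was -0.04. There were 2 lower and 0 higher at an unadjusted p under 0.05, beside 9.7% and 9.01% of all genes. Both INSIG genes, whose products hold SCAP in the endoplasmic reticulum when sterols are plentiful, were lower in every mutant library. Insig1 was at 684, 755 and 761 in the mutants, against 823, 915 and 936 in the wild type, a log2 change of -0.28 ± 0.08 (SE; limma adjusted p = 0.137). Insig2 had a log2 change of -0.16 (adjusted p = 0.278), which was 0.02 after the GC and length correction. Cyp51, a demethylase of sterol synthesis, had -0.16 (adjusted p = 0.233) with no overlap. Groups did not overlap for 3 of the 18 (16.7%), all lower in mutants, beside 24.3% of all genes in either direction.

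Of 12 genes of lysosomal cholesterol handling, 0 passed, with 5 positive and 7 negative and a median of -0.03. At an unadjusted p under 0.05 there were 2 higher and 1 lower, beside 9.01% and 9.7% of all genes. Lamp2, a lysosomal membrane protein, had a log2 change of -0.27 (limma adjusted p = 0.158), and -0.08 after the GC and length correction. Gramd1b, a sterol transporter at contacts of the endoplasmic reticulum, had 0.20 (adjusted p = 0.15), and Cyp46a1, the neuronal cholesterol hydroxylase, 0.24 (adjusted p = 0.223). Groups did not overlap for these 3 and for Scarb2, a lysosomal membrane protein named outside the rule with a log2 change of -0.07, which makes 4 of 12 (33.3%) beside 24.3% of all genes. Npc2, which hands cholesterol to NPC1, was at 587, 624 and 509 in the mutants, against 667, 540.3 and 589.8 in the wild type, and overlapped; it was named outside the rule as the partner of a member.

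Genes of the scaffolds and sorting proteins that PTCHD1 is known to bind, with retromer subunits, had a median of -0.05 over 8 tested, or 0.04 after the GC and length correction, with 2 positive and 0 past the threshold. At an unadjusted p under 0.05 there were 1 higher and 1 lower, beside 9.01% and 9.7% of all genes. Groups did not overlap for 1 higher and 1 lower of the 8, beside 12.3% and 12% of all genes. Of all genes tested 46.8% had a positive log2 change. Dlg4, which encodes the scaffold bound by the terminal codons shown above, was at 8249, 7604 and 7209 in the mutants, against 6309, 5834 and 5998 in the wild type. All mutant libraries were higher, and the log2 change was 0.34 ± 0.07 (SE; limma adjusted p = 0.109), or 0.25 after the GC and length correction. Dlg3, the other scaffold known to bind there, was named outside the rule and had a log2 change of -0.01 (adjusted p = 0.937). Vps35, the retromer core subunit, was lower in every mutant library with -0.22 (adjusted p = 0.181), or -0.10 after the GC and length correction. Snx27, the PDZ-containing sorting nexin, had -0.07 (adjusted p = 0.602). The Dlg4 value moves with the pyramidal markers given above, and the part of cell makeup was not tested.

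Genes listed by name as neighbours of Ptchd1 on the X chromosome were mostly lower in mutants without passing the threshold. Of 8 tested, 0 passed, and 7 were negative and 1 positive, where 46.8% of all genes were positive. At an unadjusted p under 0.05 there were 3, all lower, beside 9.7% of all genes in that direction. Groups did not overlap for 2, both lower, beside 12% of all genes. The median was -0.29, or -0.15 after the GC and length correction, beside -0.02 over all genes tested. Prdx4, a peroxiredoxin of the endoplasmic reticulum, was at 74.4, 89.997 and 104 in the mutants, against 119.8, 131.3 and 123 in the wild type (log2 change -0.49, limma adjusted p = 0.148). Acot9, a mitochondrial thioesterase, had a log2 change of -0.41 (adjusted p = 0.144), and the zinc finger gene Zfx -0.28 (adjusted p = 0.207), with groups that overlapped for Zfx. The mouse positions of the listed genes were not checked, so some may lie far from Ptchd1. Whether these values relate to the mutated locus was not tested.

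**Figure D4:**
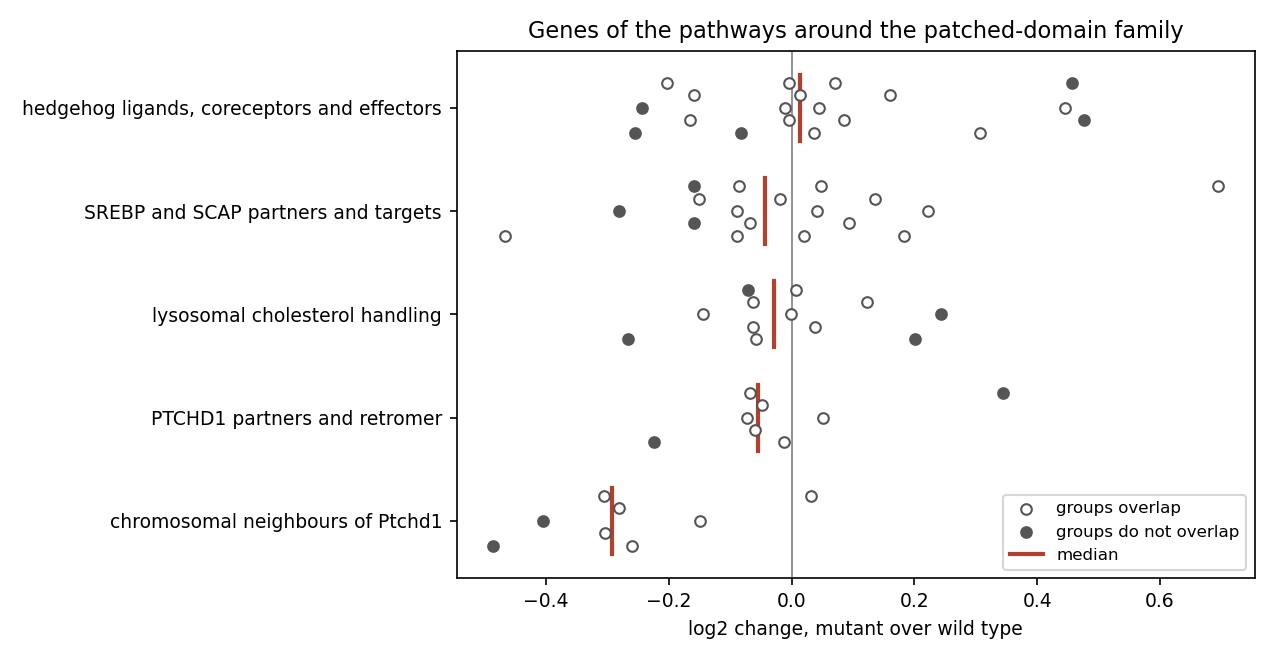
Log2 change of mutant over wild type (horizontal axis) for the tested genes of 5 lists; filled circles are genes whose mutant and wild-type libraries do not overlap, and red lines list medians. Medians lie between -0.05 and 0.01 for 4 lists. The list labelled chromosomal neighbours of Ptchd1, whose mouse positions were not checked, has a median of -0.29. After the GC and length correction the hedgehog median turns to -0.04 and the partner median to 0.04.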

How the data were processed

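Hippocampal RNA of 3 mutant and 3 wild-type libraries was depleted of ribosomal RNA and sequenced as stranded single-end libraries, per the labels' protocols. The submitters' processing notes name GSNAP, DESeq2 and mm9. Versions and settings: not given in the sources used here. The table deposited by the authors gives a normalized coverage signal per transcript, with an unadjusted p-value and a signed score. No source states the unit: values are whole multiples of a step in each library (100% within 0.01 of a step), with peaks at 42, 84 and 126 steps, and were therefore read as base coverage and divided by 42. Because coverage is not a count, no count model was run. The authors' deposited enrichment tables give fold ratios, a corrected p-value and further columns (other). 0 columns of per-sample values were left out.

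Each gene was represented by its transcript of highest mean. Genes with a mean of at least 10 were tested with limma 3.58.1 (R 4.3.3) after taking log2(value + 1), using a mean-variance trend (Benjamini-Hochberg over 15717 genes, threshold 0.05, two-sided). Log2 changes on this scale understate those of low genes. With 3 libraries against 3, an exact permutation test cannot go below p = 0.1. Replicates are numbered in accession order. GC content and length came from GENCODE transcripts on GRCm38, matched by RefSeq identifier for 98.2% of tested genes, and no coordinates are printed because that build differs from mm9. The correction subtracts natural splines of GC content and length, of 5 degrees of freedom, fitted to each library's deviations. The test was checked on simulated data. The members and lists were chosen with earlier results of these data known. Named genes are the members, the 3 genes of smallest p in each list and the 5 most like Ptchd1 over the 6 libraries; exceptions are marked, and some items are not reported here.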

Additional observations from a re-analysis of the deposited data

How the results depend on the processing

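Ptchd1 kept a negative log2 change under every alternative run (-1.40 to -1.18 over other settings, -1.41 to -1.17 when each library was left out in turn), but its call ended with no filter beyond a mean above 0 (-1.28, adjusted p = 0.134), with quantile normalization (-1.25, 0.0556) and with no variance trend (-1.28, 0.292). The first of these tests more genes (21357), and its unadjusted limma p was also larger (6.26e-06, beside 2.18e-06 as reported). The cause was not tested for any of the 3. The number of genes past the threshold was 1 as reported, 0 under those 3 settings, 3 after GC and length correction, 805 with library quality weights (462 higher and 343 lower in mutants), and between 0 and 44 when a library was left out: 44 without mutant replicate 3, 37 without wild-type replicate 2, and 0 without mutant replicate 2, wild-type replicate 1 or wild-type replicate 3. The number of relatives past it was 0 in all but 1 alternative; with quality weights, which gave 0.40 to mutant replicate 1 and 2.16 to wild-type replicate 3, it was 1 (Disp2). Ptchd2 turned sign after GC and length correction (-0.11) and without wild-type replicate 2 (-0.0059; its range with each library left out was -0.0059 to 0.12); Disp1, Disp2, Npc1, Ptch1 and Scap kept theirs. The cause of the changes was not tested. No paired analysis was possible because the replicate numbers only follow accession order. Low coverage limits Disp1 most, with 58.9 to 109 unnormalized read equivalents per library.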

Other observations

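Among 13145 genes with a mean of at least 50, the 5 whose log2 levels correlated most with Ptchd1 over the 6 libraries were l7Rn6, Loxl3, Leprot, Siae and Ndufa13, with Pearson correlations between 0.98 and 0.99. With 2 groups that do not overlap, such a value describes mainly the separation of mutant and wild-type libraries. The differences of these genes were much smaller than that of Ptchd1. Leprot, a regulator of leptin and growth hormone receptor traffic, averaged 298 ± 8.54 in mutants and 384 ± 14.01 in wild type (SD, n = 3 each), a log2 change of -0.36 (limma adjusted p = 0.12). Ndufa13, a subunit of respiratory complex I, had the largest change of the 5, at -0.48 (adjusted p = 0.109), and Siae, a sialic acid esterase, the smallest, at -0.20 (adjusted p = 0.249).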
